A study of Mus musculus with 4 samples.

Results

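The distal end of mouse chromosome 11 carried 276 of the 4638 listed Zac1 peaks (5.95%). Its members were all listed peaks on chromosome 11 whose midpoint lay at or above 100 Mb in genome build mm9. Position alone decided membership, but the segment was chosen with earlier results of these data known. The remainder of chromosome 11 held 323 peaks and the other chromosomes 4039. The peaks come from Neuro-2A, a mouse neuroblastoma cell line labelled as strain Swiss Albino, that was transfected with the Zac1 expression plasmid pRK5-Zac1 and fixed 16 hours later. Chromatin from these cells with the laboratory's own anti-Zac1 antibody (2 ChIP libraries) was set against input chromatin of the same transfected cells (2 libraries). Every library thus came from 1 cell line that received the plasmid. Neither untransfected cells nor a precipitation with another antibody was analysed here.

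Zac1, also named Plagl1, is an imprinted zinc finger transcription factor that binds GC-rich DNA and is known for arresting the cell cycle and promoting cell death. It is also known for acting on other imprinted genes. The distal end of mouse chromosome 11 is conserved with the long arm of the human chromosome that is often gained in neuroblastoma. Genes known to lie there are, in this order along the chromosome in the gene table, Stat3 (a transcription factor of cytokine signalling), Gfap (an astrocyte filament protein), Mapt (tau, which binds neuronal microtubules), Sox9 (a transcription factor of cartilage and glia), Grb2 (an adaptor of receptor tyrosine kinases) and Timp2 (an inhibitor of matrix metalloproteinases). That table belongs to another genome build than the peaks. No peak was therefore assigned to a gene, and no sequence under the peaks is given.

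The peak table gives 1 ChIP and 1 input read count per peak. It is not stated whether a count pools the 2 libraries of its group, and spread between replicates could not be measured. All values below are therefore single values, and no difference between stretches could be tested over libraries. Intervals are exact 95% intervals and cover counting error only, since each peak has 1 value per side. Those of read counts treat every read as independent and leave out spread between peaks. PCR copies cannot be told from separate molecules, so these intervals may be too narrow even for counting error. The members held 23881 ChIP reads and 1277 input reads, out of 388156 and 20321 in all listed peaks. Input reads were multiplied by 0.6961, the authors' scaling as recovered from their deposited folds, before any fold was computed.

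Zac1 peaks were dense in the distal segment. Because the segment was chosen with earlier results known, its density is a description. Its 276 peaks lay within 21.0 Mb, from the limit to the last peak, which gave 13.1 peaks per Mb. Chromosome 11 below the limit had 3.23 peaks per Mb over its full 100 Mb, in which the windows up to 3 Mb held no peak. The other chromosomes had 1.66 peaks per Mb when each was counted from its start up to its last peak. The distal density was 4.06 times that of the remainder of chromosome 11 and 7.93 times that of the other chromosomes. Against chromosome 11 from 50 to 100 Mb, a stretch chosen after seeing the data, it was 2.98 times as high. Genes per Mb were not compared, because the gene table and the peaks use different builds.

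Within the segment the peaks formed a smaller proximal and a larger distal concentration, with a sparse stretch between them. Of the 22 windows of 1 Mb, 11 held 10 or more peaks and 1, from 110 to 111 Mb, held none. Below the limit, 50 of 100 windows were empty, and on the other chromosomes 1721 of 2450 were. The fullest window ran from 117 to 118 Mb with 35 peaks, followed by 102 to 103 Mb with 32, 118 to 119 Mb with 29, 115 to 116 Mb with 28 and 120 to 121 Mb with 20. Among the 800 windows of 1 Mb with peaks on any chromosome, the window from 117 Mb took place 13 and that from 102 Mb took place 16 by peak number. The densest windows of the list were thus on other chromosomes, where a single window reached 82 peaks.

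The sparse stretch ran from 104 to 113 Mb, where no 1 Mb window held more than 9 peaks. Its widest gap was 2271324 bp between neighbouring midpoints, from the peak at chr11:109534443-109534485 (62 ChIP and 3 input reads) to that at chr11:111805774-111805803 (47 and 3). The latter was the sole peak from 111 to 112 Mb. In successive windows of 5 Mb from the limit, 80, 30, 23 and 122 peaks were listed, and 21 lay beyond 120 Mb. The 10 Mb window from 110 Mb, with 145 peaks, took place 5 among 204 windows with peaks, and that from 100 Mb, with 110, took place 7.

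**Figure D1:**
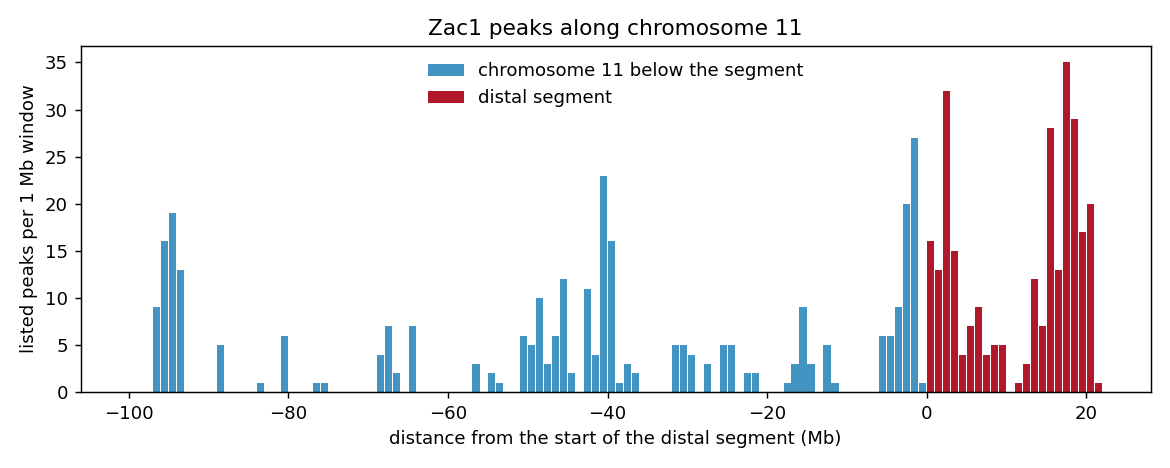
Listed Zac1 peaks per 1 Mb window along chromosome 11 (y axis, number of peaks) against the distance from the start of the distal segment (x axis, Mb). Bars of the distal segment reach 35 peaks, and those below it reach 27 in the window that ends 1 Mb before the limit.

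The limit at 100 Mb fell in a gap between clusters of peaks, and a dense stretch also lay on its other side. The windows from 97 to 98 Mb and from 98 to 99 Mb, outside the segment, held 20 and 27 peaks, and the window next to the limit held 1. That last outside peak, at chr11:99009404-99009499, had 99 ChIP reads and 3 input reads. The first member, at chr11:100132540-100132615, had 88 and 2 and lay 1123126 bp further on. The last member, at chr11:121038309-121038369, had 44 ChIP reads and no input read. With the limit 5 Mb further on, the density ratio within chromosome 11 was 3.18, and with the limit 5 Mb lower it was 4.76.

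Neighbouring members lay close to each other. Their median spacing between midpoints was 24549 bp, against 37195.5 bp below the limit and 38298.5 bp on the other chromosomes. Of the 276 members, 139 (50.4%) had another peak within 10 kb, where 41.1% of all listed peaks did. The share was 39.3% below the limit and 40.6% on the other chromosomes. The distal share was also the highest in the better ranked part of the list. After peaks within 1 kb were merged it was 43.7%, against 34.7% below the limit and 35.8% elsewhere. The order turned among peaks whose strands each reached 20 reads in their busiest window. There 22.6% of distal peaks, 25.2% of those below the limit and 31.9% of those elsewhere had such a neighbour. That distal share rested on 106 peaks, and its interval of 15.1% to 31.8% took in the share below the limit. Closer spacing goes with higher density, and the part of density in this share was not tested.

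Most close neighbours stood in pairs and triplets, not in long runs. Joined at 10 kb between midpoints, the members made 31 pairs, 17 groups of 3, 5 groups of 4 and 1 group of 6, with 137 peaks alone. Runs of up to 17 peaks were listed on other chromosomes. The group of 6, at chr11:118986825-119005990, spanned 19.2 kb and held 512 ChIP and 34 input reads (21.6-fold, 15.3 to 31.6). From its proximal end the 6 peaks had 81, 69, 89, 101, 92 and 80 ChIP reads against 1, 2, 5, 8, 13 and 5 input reads. ChIP reads differed little along this run, while most input reads lay in the peaks with 8 and 13.

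The folds of the groups of 4 ranged from 23.9 to 55.6, on few input reads. At chr11:118384718-118391386, 387 ChIP reads faced 10 input reads (55.6-fold, 29.9 to 116.9). At chr11:115662485-115675465, 301 faced 9 (48.0-fold, 24.97 to 106.1). The other 3 were lower, with 355 against 19 reads at chr11:102615580-102623493 (26.8-fold), 287 against 16 at chr11:117110032-117128174 (25.8-fold) and 349 against 21 at chr11:115695829-115706000 (23.9-fold). Their intervals overlapped those of the first pair of groups.

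At the scale of 100 kb, 261 of 276 members (94.6%) were joined to another, against 82.5% of all listed peaks, 84.8% below the limit and 81.5% elsewhere. Domains of 10 or more peaks numbered 9 and took in 138 members, and in the whole list they took in 1779 of 4638 peaks (38.4%). The largest domain, chr11:116704118-117435263, spanned 731.1 kb with 30 peaks, 2492 ChIP reads and 147 input reads (24.4-fold, 20.6 to 29.0). The next, chr11:101950537-102505404, spanned 554.9 kb with 22 peaks, 1943 ChIP reads and 113 input reads (24.7-fold, 20.4 to 30.1). A domain of 12 peaks at chr11:118224105-118459730 had 1076 ChIP and 29 input reads, a 53.3-fold excess (36.9 to 80.0) whose interval lay above those of both larger domains. It contains the group of 4 with the highest fold.

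**Figure D2:**
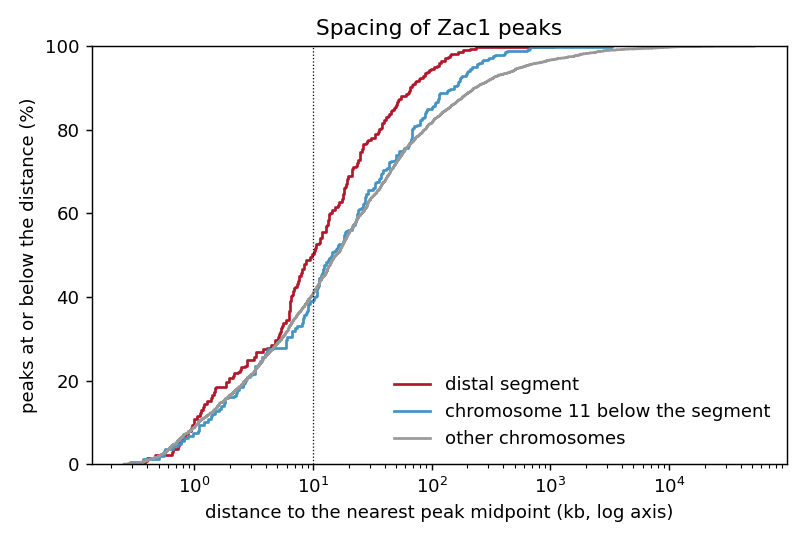
Cumulative share of peaks (y axis, %) whose nearest peak midpoint lies within a given distance (x axis, kb, log axis) for the distal segment, the remainder of chromosome 11 and the other chromosomes. At 10 kb, the dotted line, the curve of the distal segment stands at 50.4% and the others at 39.3% and 40.6%.

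Distal peaks were enriched over input to about the degree of the whole list. Over the 276 members, ChIP reads exceeded scaled input reads 26.9-fold (25.4 to 28.4). The fold was 29.8 (28.1 to 31.5) below the limit and 27.3 (26.9 to 27.7) on the other chromosomes. The lower limit of a peak's own fold was above 10 in 161 members (58.3%), against 58.3% of all listed peaks. No input read fell in 13 members, which is 4.71% against 5.22% of all listed peaks. All of these peaks were listed because of their enrichment, so the folds describe the list.

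Both ChIP and input reads per peak were higher in the distal segment than on the remainder of chromosome 11. The median member had 78 ChIP reads (interquartile range 61 to 101, lowest 37, highest 310), and the median was 73 below the limit and 75 on the other chromosomes. The mean was 86.5 ChIP reads per member (85.4 to 87.6), against 79.2 (78.2 to 80.2) below the limit and 83.9 (83.6 to 84.1) elsewhere. Input reads averaged 4.63 per member (4.38 to 4.89), against 3.82 (3.61 to 4.04) below the limit and 4.41 (4.34 to 4.47) elsewhere. The counting intervals of distal and remaining chromosome 11 did not overlap in either measure. For input, the distal interval did overlap that of the other chromosomes. These intervals leave out spread between peaks and cannot show a difference beyond it. An interval over peaks for the distal median of ChIP reads was 74 to 83. It took in the 75 of the other chromosomes and began just above the 73 below the limit. No such interval was computed for either of those medians. The number of input reads per peak can vary with the amount of DNA, with mappability and with region length, and their parts cannot be told apart from these values.

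Folds of single members varied widely. The middle 50% of members with input reads had folds from 20.01 to 43.6, with a median of 29.0, and the full range was 7.66 to 196.8. The highest rested on 137 ChIP reads and 1 input read (34.7 to 7829.6), and the median member had 4 input reads. The part of counting error in this spread was not tested. ChIP and input reads of a member went together with a Spearman correlation of 0.44 over 276 peaks, and the value was 0.38 below the limit and 0.44 elsewhere. These points share libraries and the length over which reads were counted. A total of 14 members (5.07%) reached 28 or more reads in the fullest window on both strands, near the 4.55% of all listed peaks. Another 52 members (18.8%) sat at 16 reads on the weaker strand, the lowest value in the list, against 22.1% of all listed peaks. The share was 26.9% below the limit and 21.9% elsewhere, and the distal interval of 14.4% to 24.0% took in that of all peaks.

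**Figure D3:**
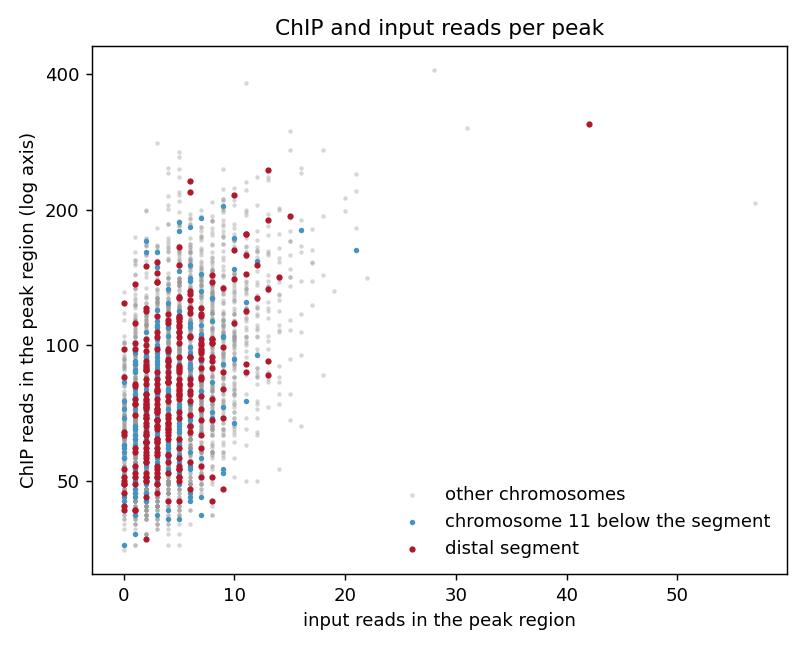
ChIP reads (y axis, log axis) against input reads (x axis) in each listed peak region, 1 point per peak, for the distal segment, the remainder of chromosome 11 and the other chromosomes. Distal peaks spread through the cloud of the other peaks, and 1 of them stands apart at 42 input and 310 ChIP reads.

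The 10 best ranked members had 98 to 216 ChIP reads and 1 to 11 input reads, and 8 of them were at most 102 bp long. Rank is the authors' own order, which follows the largest window fold. The best, rank 31, was at chr11:102485771-102485846 with 177 ChIP reads, 90 forward and 87 reverse, and 11 input reads (23.1-fold, 12.6 to 47.2). Rank 34 was at chr11:117751197-117751280 with 151 and 5 reads (43.4-fold, 18.2 to 135.5). Rank 54 was at chr11:103962390-103962456, where 216 ChIP reads faced 10 input reads. Rank 55, at chr11:116193549-116193577, had 150 and 2 reads (107.7-fold, 29.3 to 897.8), with neither input read on the forward strand. All 4 were under 100 bp long, and their strands differed by at most 10 ChIP reads.

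The other members among the 10 best ranked had 98 to 145 ChIP reads and 1 to 6 input reads. Rank 95, at chr11:119415853-119416208, and rank 174, at chr11:114657192-114657674, were long, at 356 and 483 bp, and their reverse summit lay 11 and 56 bp before the forward one. The peak at chr11:112878170-112878213, rank 98, had 98 ChIP reads and 1 input read and stood in the sparse stretch, where its nearest proximal neighbour was 1.07 Mb away. The remaining 3 of these sites, at chr11:117727700-117727737, chr11:118950661-118950739 and chr11:119039475-119039576, had 132, 145 and 116 ChIP reads against 6, 3 and 5 input reads. In total 68 members (24.6%, interval 19.7% to 30.2%) had a rank of 1000 or better, near the 21.4% of all listed peaks. The share was 18.3% below the limit and 21.4% elsewhere.

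One member combined the strongest ChIP pile-up with very high input. The peak at chr11:108872984-108873214 had 310 ChIP reads, 154 forward and 156 reverse, and 42 input reads, 21 on each strand. Its busiest ChIP window held 127 reads, the most of any of the 4638 peaks. Its busiest input window held 15, and the 2 windows need not coincide. Only 2 listed peaks had more ChIP reads, and only 1 had more input reads. Its fold was 10.6 (7.66 to 15.0), and 6 of the 263 members with input reads had a lower one. The authors ranked it 4336.

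The next highest ChIP counts came with 6 to 13 input reads. They were 245 ChIP and 13 input reads at chr11:104160421-104160491, 232 and 6 at chr11:102152049-102152123, 219 and 6 at chr11:101758005-101758196, and the 216 and 10 reads of the site ranked 54. The 5 highest ChIP counts thus lay in the first 10 Mb of the segment, which held 110 of the 276 members. High input counts otherwise stood at 15 reads at chr11:117192636-117192872 (194 ChIP reads) and 14 at chr11:100925115-100925237 (142). Input reached 13 at chr11:118736115-118736144 (133), chr11:107409405-107409536 (190), chr11:113407561-113407589 (86) and chr11:118995856-118996285 (92). The peak with 245 ChIP reads also had 13, so high input came with both high and middling ChIP counts. The lowest folds of the segment belonged to weak sites. They were 7.66 (48 ChIP and 9 input reads) at chr11:120657660-120657913, 8.08 (45 and 8) at chr11:106243947-106244080 and 9.16 (51 and 8) at chr11:102017672-102017700. The second of these was the single member whose false discovery rate in the authors' deposited table was above 0 at 6 decimals. The next lowest fold, 9.50, belonged to the peak with 86 ChIP and 13 input reads, so low folds were not confined to weak sites.

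Input reads per peak differed along the segment. The 110 members from 100 to 110 Mb averaged 5.41 input reads (4.98 to 5.86), and the 166 from 110 Mb on averaged 4.11 (3.81 to 4.43). Their pooled folds were 24.3 (22.4 to 26.4) and 29.1 (27.0 to 31.5), while their median ChIP reads were close, at 76 and 79.5. Without the peak of 42 input reads, the stretch from 100 to 110 Mb had 5.07 input reads per peak (4.66 to 5.51) and a fold of 25.3 (23.2 to 27.6). The input intervals of the 2 stretches still did not overlap, whereas the fold intervals, apart before, then did. Spread between peaks is left out of all these intervals.

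By single window, the 5 peaks from 108 to 109 Mb averaged 10.8 input reads (8.11 to 14.1) and the 4 peaks of the window from 104 Mb averaged 8.25 (5.68 to 11.6). The first value was set by 1 peak, since the other 4 peaks averaged 3. In the latter window the members had 11, 13, 4 and 5 input reads and 159, 245, 52 and 78 ChIP reads, so high input accompanied high ChIP. In the windows from 115 to 121 Mb, input was between 3.45 reads per peak from 118 to 119 Mb and 5.08 from 116 to 117 Mb. It was 5.77 in the 13 peaks from 101 to 102 Mb. The window from 118 Mb also had the highest pooled fold of the segment's windows with 10 or more peaks, at 36.1 (29.5 to 44.5).

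Input reads per peak also varied below the limit. The 69 peaks from 94 to 100 Mb averaged 4.46 input reads (3.98 to 4.99) and the 254 peaks below 94 Mb averaged 3.65 (3.42 to 3.89). Single windows differed, with 3.45 reads per peak from 97 to 98 Mb and 5.93 from 98 to 99 Mb, and the stretch from 30 to 40 Mb had 5.25 (4.29 to 6.36). These stretches were chosen after their values were seen.

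**Figure D4:**
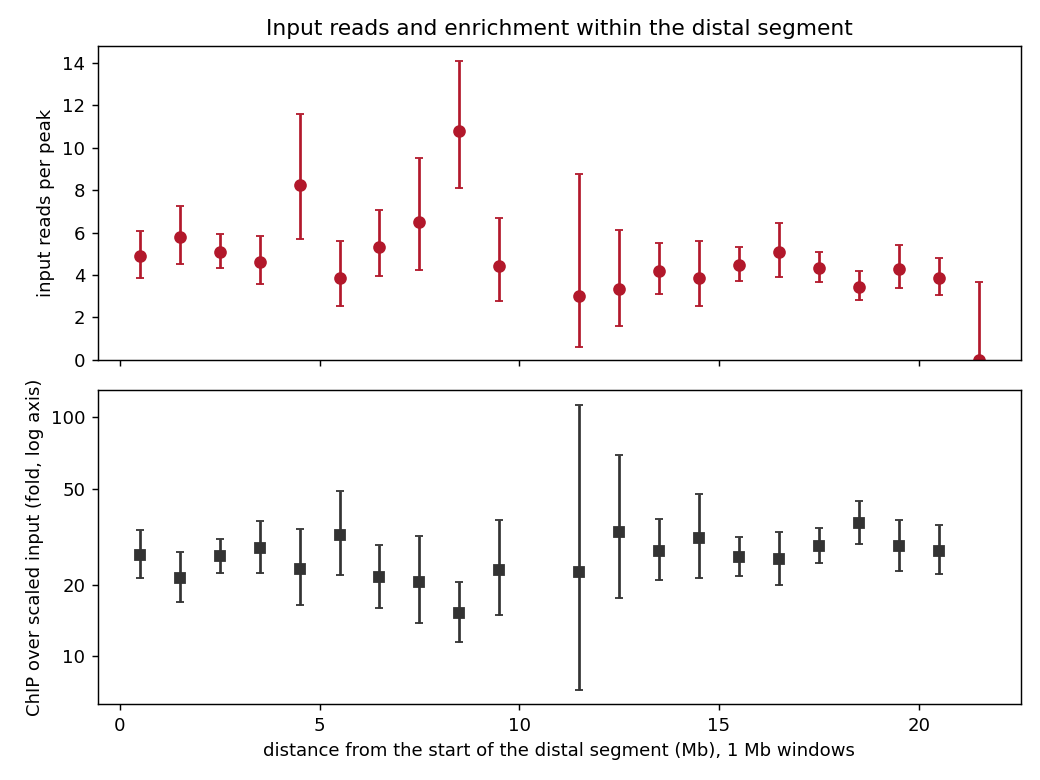
Input reads per peak (upper panel) and pooled ChIP over scaled input (lower panel, fold, log axis) in 1 Mb windows of the distal segment, with exact 95% counting intervals, against the distance from its start (x axis, Mb). The window from 8 to 9 Mb stands highest in input, at 10.8 reads per peak, and lowest in fold, at 15.2, and it contains the peak with 42 input reads.

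The form of the distal peaks was close to that of the list. Forward reads made up 50.01% of the ChIP reads and 52.2% of the input reads. The median distance from the forward to the reverse summit was 72 bp (quartiles 32.8 and 104), against 67 bp below the limit and 68 bp elsewhere. This distance equalled the deposited length in 76.8% of members, so the length mostly records the summit distance. In the authors' deposited table the strand balance, which divides the smaller strand fold by the larger,, had a median of 0.85 in the segment, 0.85 below the limit and 0.84 elsewhere. Their median log2 value of the largest window fold was 5.00, 4.95 and 4.95.

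Long peaks made up a minority of the members. A length of 200 bp or more was listed for 53 members (19.2%), against 15.4% of all listed peaks, 12.4% below the limit and 15.4% elsewhere. The distal share's interval of 14.7% to 24.4% overlapped that of the remainder of the chromosome (8.997% to 16.5%). The longest, at chr11:117775264-117776034, measured 771 bp, with 165 ChIP and 5 input reads and the reverse summit 333 bp before the forward one. Such inverted or coinciding summits occurred in 40 members (14.5%, interval 10.6% to 19.2%), near the 12.3% of all listed peaks. The share was 10.8% below the limit and 12.2% elsewhere. Long members had a median of 94 ChIP reads and 6.51 input reads per peak (5.84 to 7.23), and shorter ones had 74 and 4.18 (3.92 to 4.46). Among peaks under 200 bp, input per peak was also higher in the distal segment than below the limit, where it was 3.68 (3.46 to 3.91). The counting intervals, which leave out spread between peaks, just failed to overlap.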

How the data were processed

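One deposited peak table was used, in the layout of CisGenome, a peak caller, per the file headers. The submitters' processing notes name build mm9. Aligner, filters, thresholds and the combination of replicates: not given in the sources used here. Read counts per peak are the authors' whole numbers, and both strands sum to the total in 4638 of 4638 peaks. The deposited fold is a log2 ratio with a pseudocount of 1. An input constant of 0.6961 matched 100.0% of its values, and no scaling matched 84.1%. The deposited false discovery rate (a p-value-like quantity), strand balance (a fraction) and rank (a score) are the authors' and were used for description.

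Intervals are Clopper-Pearson for folds and shares and exact Poisson for means (SciPy 1.17.1), from functions tested on simulated data. The interval of a median was taken from the ordered values of the peaks. Spacing was measured between midpoints. Library totals are not given. Folds were scaled only by the constant recovered from the deposited values, and reads per peak are unscaled counts. No test was made, because each peak has 1 value per side. The peaks named by rule were the 10 best ranked, the 5 with most ChIP or input reads, the 3 lowest folds, the first and last, the fullest and empty windows and the largest runs. Other peaks and stretches were named after their values were seen. The segment and its measures were chosen with earlier results of these data known. Alternatives covered rank, strand reads, merging, limits, scaling and single windows or peaks.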

Additional observations from a re-analysis of the deposited data

How the results depend on the processing

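Of 38 values under alternative settings, 21 stayed within the interval of the reported value and 17 moved outside it. Some settings, such as other neighbour distances, no input scaling and busiest windows, measure another quantity. Most others share peaks with the reported value, so these counts are no measure of robustness. The density ratio within chromosome 11, 4.06 as reported, was 3.18 with the limit 5 Mb higher and 2.98 against 50 to 100 Mb, and it was 3.69 to 4.76 under the other 6 settings. The fold of 26.9 became 35.6 in the better ranked part of the list (2319 peaks), which was ranked on fold, 18.7 without input scaling and 21.1 from busiest windows. The busiest ChIP window and the busiest input window of a peak need not coincide. The median of 78 ChIP reads became 85 in the better ranked part and 92.5 with at least 20 reads per strand. The 4.63 input reads per peak became 3.80, 5.33, 4.18 and 2.54 for better ranked peaks, at least 20 reads per strand, peaks under 200 bp and busiest windows. The 50.4% with a neighbour within 10 kb became 10.9% within 1 kb, 94.6% within 100 kb, 39.2% for better ranked peaks, 22.6% with at least 20 reads per strand and 43.7% after merging within 1 kb. It was 90.6% after merging within 10 kb with neighbours within 100 kb. Thinner lists hold fewer neighbours by construction; the cause was otherwise not tested. Settings added after seeing the data were the omission of the peak with 42 input reads, busiest-window input, the stretch from 50 Mb and the last merging. No paired analysis was possible because replicates have no columns of their own, and for that reason no replicate could be left out. Low input counts, with a median of 4 reads per peak, limit single folds.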
